A study of Mus musculus with 36 samples.

Results

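The genes described here are 30 markers of the layers and projection neurons of the cerebral cortex, measured in the brain of mice that received diazepam (DZP), a benzodiazepine, or its vehicle for 10 days. They were taken by name from the gene-level table of a microarray: a member is the transcript cluster whose only gene symbol in the array annotation is the listed one, and of several clusters of a gene the brightest on average over the 18 arrays was kept. 28 of the 30 genes had such a cluster, out of 65956 clusters tested, of which 30638 carried a single symbol. *Etv1*, an ETS transcription factor of layer 5, shared its cluster with another symbol and was not measured alone, and *Ctgf*, a secreted matricellular protein of the deepest layer, was represented only at the exon level. *Rorb* had 2 clusters, and both are reported. The brighter one, kept as the member, carries the identifier of an unmapped cluster, and the dimmer one that of a mapped cluster.

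Male C57BL/6 mice of about 8 weeks were injected i.p. 2 times a day with DZP in Intralipid, a lipid emulsion (DZP), or with Intralipid alone (Ctrl), at a dose that the labels write as 5 mg/ml. DZP and Ctrl mice alike were anesthetized with medetomidine, midazolam (also a benzodiazepine), and butorphanol, and then perfused. Tissue of the cortex, hippocampus, and amygdala was punched from coronal slices, so each sample mixes all cell types of the punch. Each of the 6 groups of treatment and region held 3 arrays, and each array was read at the level of the gene and of the exon. The labels do not tie the arrays of the 3 regions to individual mice. In the main fit, p-values measure the spread between the 3 arrays of a group, pooled over the 6 groups. Those of any region thus also rest on the spread in the other regions.

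In the neocortex, glutamatergic neurons are stacked in layers that differ in the targets of their axons. Neurons of the upper layers receive thalamic input or connect cortical areas, neurons of layer 5 project to the striatum, brainstem, and spinal cord, and neurons of layer 6 project largely to the thalamus. Each class is set up by transcription factors, among them Cux1, Cux2, and Rorb above, Fezf2 and Bcl11b in layer 5, and Tbr1 and Foxp2 in layer 6, which are used together with surface and signalling proteins as layer markers. Many of these genes are also expressed by other neurons, for instance in the hippocampus, the amygdala, and the striatum. In bulk tissue, fewer cells of a type and less RNA per cell cannot be told apart.

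Promoter sequences are shown for *Rorb*, the member with the largest difference between DZP and Ctrl cortex, and for *Mef2c*, the member with the largest difference between regions. They are RefSeq promoters of the mouse assembly GRCm38.p6, each running from 250 bases before to 50 bases after an annotated start, and 19 members had at least 1. The capitals mark the letters AGGTCA on either strand, the half-site that ROR nuclear receptors, the family of Rorb, read. Both *Rorb* promoters lack these letters, 2 of the 3 *Mef2c* promoters hold them, and 16.3% of all 32851 promoters of this length do, as do 5 of the 29 promoters of members. The *Rorb* promoters and the *Mef2c* promoters with the letters are printed. A match is only a match of letters.

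*Rorb*, start 1, chr19:19111147-19111446, minus strand: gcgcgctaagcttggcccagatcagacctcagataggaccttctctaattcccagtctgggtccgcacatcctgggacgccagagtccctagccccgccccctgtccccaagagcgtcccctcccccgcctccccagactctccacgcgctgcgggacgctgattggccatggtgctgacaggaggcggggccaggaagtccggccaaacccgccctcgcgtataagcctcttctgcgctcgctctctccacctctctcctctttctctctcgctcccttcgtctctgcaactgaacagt

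*Rorb*, start 2, chr19:19001068-19001367, minus strand: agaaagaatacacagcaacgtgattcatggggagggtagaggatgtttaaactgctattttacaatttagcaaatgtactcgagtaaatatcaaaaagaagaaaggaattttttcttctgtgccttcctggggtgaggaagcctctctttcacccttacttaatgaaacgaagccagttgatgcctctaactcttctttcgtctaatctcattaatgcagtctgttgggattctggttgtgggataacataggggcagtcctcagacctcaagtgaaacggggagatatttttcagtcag

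*Mef2c*, chr13:83523406-83523705, plus strand: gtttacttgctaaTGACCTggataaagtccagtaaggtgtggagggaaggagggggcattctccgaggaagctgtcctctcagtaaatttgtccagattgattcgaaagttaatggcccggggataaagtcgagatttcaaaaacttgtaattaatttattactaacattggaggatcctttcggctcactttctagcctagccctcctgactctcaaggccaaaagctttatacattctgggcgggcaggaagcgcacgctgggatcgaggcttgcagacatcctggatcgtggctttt

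*Mef2c*, chr13:83573357-83573656, plus strand: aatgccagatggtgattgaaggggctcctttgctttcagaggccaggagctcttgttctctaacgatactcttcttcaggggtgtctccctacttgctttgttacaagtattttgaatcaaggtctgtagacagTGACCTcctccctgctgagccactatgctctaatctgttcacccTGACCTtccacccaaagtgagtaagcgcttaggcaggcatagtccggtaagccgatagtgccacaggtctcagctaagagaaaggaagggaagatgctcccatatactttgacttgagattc

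All levels are signal intensities on the log2 scale as deposited. A gene was called when its adjusted p in limma, corrected over all clusters, was under 0.05. The mean of 5222 negative control probe sets lay between 6.71 and 6.80 on the 18 arrays. 20 of the 28 members lay above it on every array, and *Nxph4* lay below it on every array. Array medians ran from 5.86 to 6.03, below the mean of the negative controls, and arrays of a group correlated at 0.993 to 0.996 over all clusters. The regions were checked with markers that are no members. The mean of 11 hippocampal markers was 8.79 to 9.30 on the hippocampal arrays, 7.39 to 7.53 on the amygdala arrays, and 7.04 to 7.12 on the cortex arrays, and that of 9 amygdala markers was 6.81 to 7.38 in the amygdala, 6.10 to 6.29 in the hippocampus, and 6.08 to 6.16 in the cortex. Choroid plexus markers, which mark tissue of the ventricle, stood at a mean of 7.88 and 8.01 in DZP hippocampus replicates 1 and 2, at 8.75 and 7.13 in Ctrl hippocampus replicates 2 and 3, and at 8.59 in Ctrl amygdala replicate 3, against 5.40 to 6.04 on the 13 other arrays.

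The first comparison asked how the layer genes were distributed over the regions in Ctrl mice. The upper layer genes formed the most region-bound group: 8 of 11 fell in the hippocampus and 9 of 11 in the amygdala relative to the cortex, with median log2 differences of −2.05 and −1.51 over all 11. Over all 28 members, 7 were higher and 13 lower in the hippocampus than in the cortex, where 8.13% and 6.89% of all clusters were called. In the amygdala, 9 members were higher and 12 lower than in the cortex (8.87% and 6.65% of all clusters). Both comparisons share the cortex arrays. Between the amygdala and the hippocampus, 14 members were higher and 9 lower in the amygdala (5.77% and 4.57%).

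*Mef2c*, a MADS-box transcription factor, had 11.33, 11.67, and 12.01 in Ctrl hippocampus, 13.14, 13.19, and 13.34 in Ctrl amygdala, and 15.07, 15.13, and 14.87 in Ctrl cortex. The 3 regions did not overlap, and the hippocampus was 10.2-fold lower than the cortex (log2 difference −3.35, SE 0.16, adjusted p = 6.9e-10). *Rorb*, the nuclear receptor RORβ of layer 4 neurons, had 9.28, 8.87, and 9.19 in Ctrl hippocampus, 9.54, 9.57, and 9.64 in Ctrl amygdala, and 12.39, 12.51, and 12.42 in Ctrl cortex. Its brighter cluster was 10.0-fold lower in the hippocampus (−3.32, SE 0.10, adjusted p = 5.3e-12), and its dimmer cluster differed by −3.12 (SE 0.08, adjusted p = 2.0e-12). *Pou3f2*, a POU-domain factor of upper layer neurons, had 7.22, 7.21, and 7.62 in Ctrl hippocampus, 7.42, 7.52, and 7.13 in Ctrl amygdala, and 9.22, 10.18, and 10.11 in Ctrl cortex. The cortex stood apart from both other regions, although 1 of its arrays lay well below the other two (hippocampus against cortex −2.49, SE 0.20, adjusted p = 2.4e-07).

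Among the other upper layer genes, the homeobox factors *Cux1* and *Cux2* were lower in the hippocampus by −2.18 and −1.95, the secreted Wnt agonist *Rspo1* by −2.06, and the Ras exchange factor *Rasgrf2* by −2.05, all called. *Rspo1* averaged 6.45 in Ctrl hippocampus, below the negative controls, which limits what the size of its difference can show. The group was not uniform. *Otof*, the C2-domain protein otoferlin, averaged 9.85 ± 0.16 in Ctrl amygdala, 6.62 ± 0.07 in Ctrl hippocampus, and 7.31 ± 0.21 in Ctrl cortex (SD, n = 3 each), which made it 5.85-fold higher in the amygdala than in the cortex (2.55, SE 0.11, adjusted p = 4.6e-10). The LIM homeobox factor *Lhx2* and the sodium channel subunit gene *Scnn1a* differed between hippocampus and cortex by −0.01 and 0.00 and were lower in the amygdala than in the cortex by −0.38 and −0.62, both called. *Scnn1a* averaged 6.35 in Ctrl amygdala, again below the negative controls. *Pou3f1*, a POU-domain factor, was higher in the hippocampus than in the cortex (0.46, SE 0.10, adjusted p = 0.0060).

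The layer 5 genes had no common region. *Crym*, the thyroid hormone binding protein mu-crystallin, had 9.90, 9.86, and 10.28 in Ctrl hippocampus, 8.69, 8.83, and 9.56 in Ctrl amygdala, and 7.47, 6.97, and 7.12 in Ctrl cortex, with no overlap between regions. It was 7.09-fold higher in the hippocampus than in the cortex (2.83, SE 0.19, adjusted p = 2.9e-08). *Bcl11b*, the zinc finger factor Ctip2, had 11.52, 11.30, and 11.17 in Ctrl hippocampus, 11.00, 10.96, and 10.70 in Ctrl amygdala, and 9.01, 9.01, and 9.02 in Ctrl cortex. This factor, which also marks hippocampal and striatal neurons, was 5.00-fold higher in the hippocampus (2.32, SE 0.13, adjusted p = 2.7e-09). *Deptor*, an inhibitor of the mTOR kinase, had 7.75, 8.11, and 8.23 in Ctrl hippocampus, 7.81, 8.12, and 7.86 in Ctrl amygdala, and 9.41, 9.20, and 9.65 in Ctrl cortex, and was the layer 5 gene with the clearest cortical level (hippocampus against cortex −1.39, SE 0.15, adjusted p = 6.3e-06).

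*Fezf2*, the zinc finger factor of subcerebral projection neurons, was higher in the hippocampus than in the cortex (0.67, SE 0.17, adjusted p = 0.010) and differed between amygdala and cortex by 0.01. *Cdh13*, a membrane-anchored cadherin, and *Ldb2*, a cofactor of LIM homeobox proteins, were higher in the amygdala than in the cortex by 1.80 and 1.15. *Sulf2*, an extracellular sulfatase that edits heparan sulfate, was lower in the amygdala by −0.98. *Pcp4*, a calmodulin-binding peptide that is also abundant in the striatum, was the brightest member, at 16.15 ± 0.35 in Ctrl amygdala, 15.08 ± 0.22 in Ctrl hippocampus, and 15.96 ± 0.11 in Ctrl cortex, and was called lower in the hippocampus (−0.88, adjusted p = 0.0063). *Tox*, an HMG-box protein, was lower in the hippocampus as well (−0.54, adjusted p = 0.018), and *Parm1*, a mucin-like membrane protein, differed by 0.43 and narrowly missed the threshold (adjusted p = 0.0502).

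The layer 6 genes split in the same way. *Tbr1*, a T-box factor of corticothalamic neurons, had 7.95, 8.05, and 8.43 in Ctrl hippocampus, 7.86, 7.86, and 8.05 in Ctrl amygdala, and 10.09, 10.16, and 9.94 in Ctrl cortex. It was the only layer 6 gene called lower than in the cortex in both other regions (−1.92 in the hippocampus, adjusted p = 1.1e-08, and −2.14 in the amygdala, adjusted p = 3.7e-09). *Foxp2*, a forkhead factor, had 5.92, 6.01, and 5.99 in Ctrl hippocampus, 8.42, 8.80, and 7.78 in Ctrl amygdala, and 6.99, 7.08, and 7.10 in Ctrl cortex. It was lowest in the hippocampus, below the negative controls, and highest in the amygdala (1.28 against cortex, adjusted p = 3.8e-05). Markers of the striatum averaged 8.15 to 9.10 on the Ctrl amygdala arrays, against 7.12 to 7.18 on the Ctrl cortex arrays. Their part in the amygdala levels of *Foxp2*, *Bcl11b*, and *Pcp4* was not tested. *Hs3st4*, a heparan sulfate 3-O-sulfotransferase, had 7.73, 7.95, and 7.88 in Ctrl hippocampus, 6.90, 7.44, and 7.31 in Ctrl amygdala, and 7.13, 7.29, and 6.93 in Ctrl cortex, where the hippocampus alone stood apart (0.74, SE 0.14, adjusted p = 0.0012).

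The neurotensin receptor gene *Ntsr1* and the neurexophilin gene *Nxph4*, 2 genes used as markers of corticothalamic cells, averaged 5.89 and 5.29 in Ctrl cortex, below the negative controls, and were called higher in the amygdala by 1.25 and 0.83. *Syt6*, a synaptotagmin, averaged 6.30 in Ctrl cortex. The cortical levels of these genes were therefore below the mean of the negative controls, although that mean lay above the array medians. The corepressor *Tle4* was higher in the hippocampus by 0.44 (adjusted p = 0.018). The 13 exon-level probe sets of *Ctgf* had array medians of 5.38, 6.25, and 6.72 in Ctrl hippocampus, 5.84, 6.71, and 6.56 in Ctrl amygdala, and 6.15, 6.09, and 6.60 in Ctrl cortex, and the regions overlapped.

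**Figure D1:**
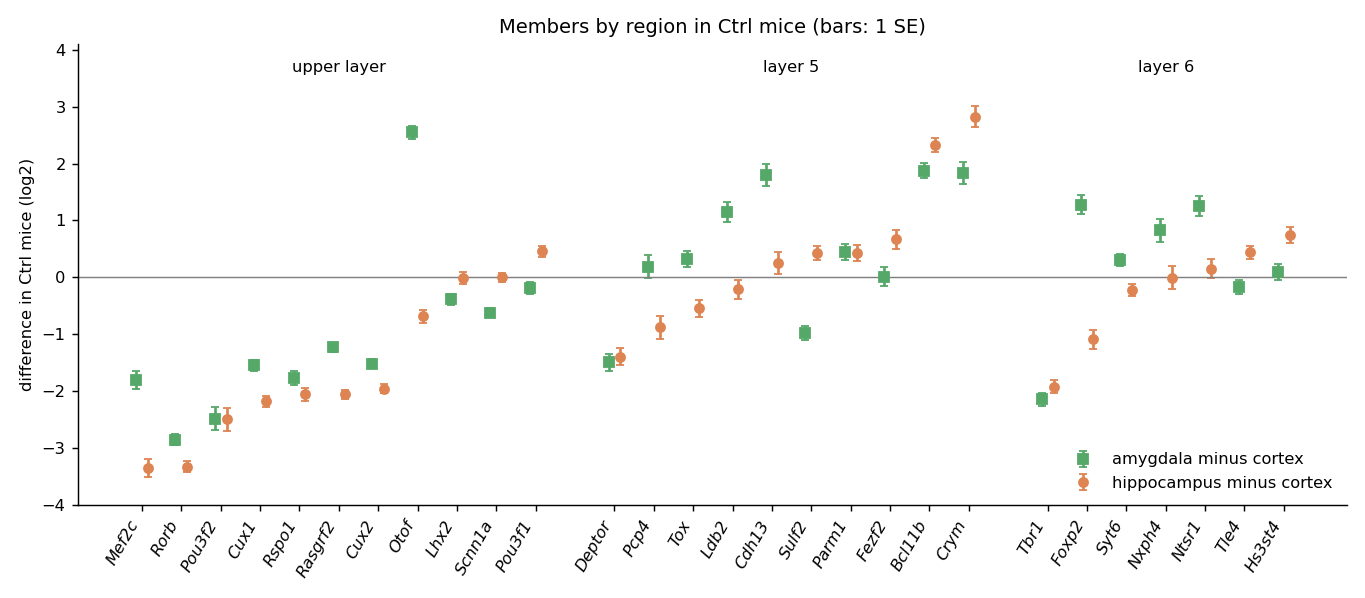
Difference of each of the 28 members between amygdala and cortex (green squares) and between hippocampus and cortex (orange circles) in Ctrl mice, on the log2 scale with 1 SE from the limma fit (3 arrays a group). Members are ordered by their hippocampal difference within the upper layer, layer 5, and layer 6 groups, and 7 upper layer genes lay below −1 in both regions, whereas *Otof* in the amygdala and *Bcl11b* and *Crym* in both lay above 1.

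A further 21 layer genes that are no members were held as a background list, of which 19 had a cluster. In Ctrl mice 6 were higher and 9 lower in the hippocampus than in the cortex, with a median of −0.25. The largest differences were those of *Plxnd1*, a semaphorin receptor (−2.91, adjusted p = 1.9e-08), and *Crim1*, a membrane protein that binds BMPs (1.72, adjusted p = 9.4e-08). The members' median was −0.21, and that of all clusters 0.04.

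In DZP mice the regional pattern was measured again on separate arrays. Relative to DZP cortex, 8 members were higher and 13 lower in DZP hippocampus (6.57% and 5.69% of all clusters), and 9 were higher and 14 lower in DZP amygdala (13.1% and 7.27%). Between the amygdala and the hippocampus of DZP mice, 14 were higher and 9 lower (6.25% and 4.46%). *Rorb* differed between hippocampus and cortex by −2.71 on the log2 scale in DZP mice, beside −3.32 in Ctrl mice.

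The second comparison was DZP against Ctrl in the cortex. No member was called by its brightest cluster, while 4 clusters were higher and 20 lower over the whole array (0.00606% and 0.0303%). At an unadjusted p under 0.05, 2 of the 28 members passed, both lower, against 7.83% of all clusters. The dimmer *Rorb* cluster was among the 20, and the upper layer and layer 5 genes lay on opposite sides of 0: 9 of 11 upper layer genes had a lower mean in DZP cortex (median log2 fold change −0.09, or −0.06 without Ctrl replicate 2 or DZP replicate 3), and 10 of 10 layer 5 genes had a higher one (median 0.13, range 0.04 to 0.36). Over all clusters 51.6% had a lower and 48.4% a higher mean, and the median was −0.00. Of the 7 layer 6 genes, 4 had a higher mean (median 0.01, range −0.09 to 0.07).

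The dimmer *Rorb* cluster had 10.91, 10.92, and 10.98 in DZP cortex, against 11.44, 11.60, and 11.52 in Ctrl cortex. All 3 DZP arrays lay below all 3 Ctrl arrays, and the cluster fell by 0.59 on the log2 scale (SE 0.08, 1.5-fold, adjusted p = 0.018 in limma). The brighter cluster had 11.97, 12.05, and 12.02 in DZP cortex, against 12.39, 12.51, and 12.42 in Ctrl cortex. It differed in the same direction without overlap (−0.42, SE 0.10, 1.34-fold) and was not called (adjusted p = 0.23). The call of the dimmer cluster was narrow. It was lost without Ctrl cortex replicate 2 (adjusted p = 0.14), DZP cortex replicate 1 (0.060), or DZP cortex replicate 2 (0.068), when each array was centred on its median (0.065), when only the 6 cortex arrays were fitted (0.21), and in the methods' test after Benjamini-Hochberg correction (0.42). With the mean of both clusters in place of the brighter one, *Rorb* was called (−0.50, adjusted p = 0.027).

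In the other regions the *Rorb* clusters of the treatments overlapped. The brighter cluster had 9.39, 9.20, and 9.33 in DZP hippocampus, against 9.28, 8.87, and 9.19 in Ctrl hippocampus, and 9.69, 9.74, and 9.47 in DZP amygdala, against 9.54, 9.57, and 9.64 in Ctrl amygdala. The dimmer cluster had 8.58, 8.34, and 8.39 in DZP hippocampus, against 8.40, 8.39, and 8.41 in Ctrl hippocampus. It had 8.39, 8.60, and 8.58 in DZP amygdala, against 8.64, 8.61, and 8.54 in Ctrl amygdala. The DZP effect on *Rorb* in the hippocampus minus that in the cortex was 0.62 in both clusters (adjusted p = 0.22 for the brighter and 0.18 for the dimmer one), so the test of the difference between regions did not pass the threshold.

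**Figure D2:**
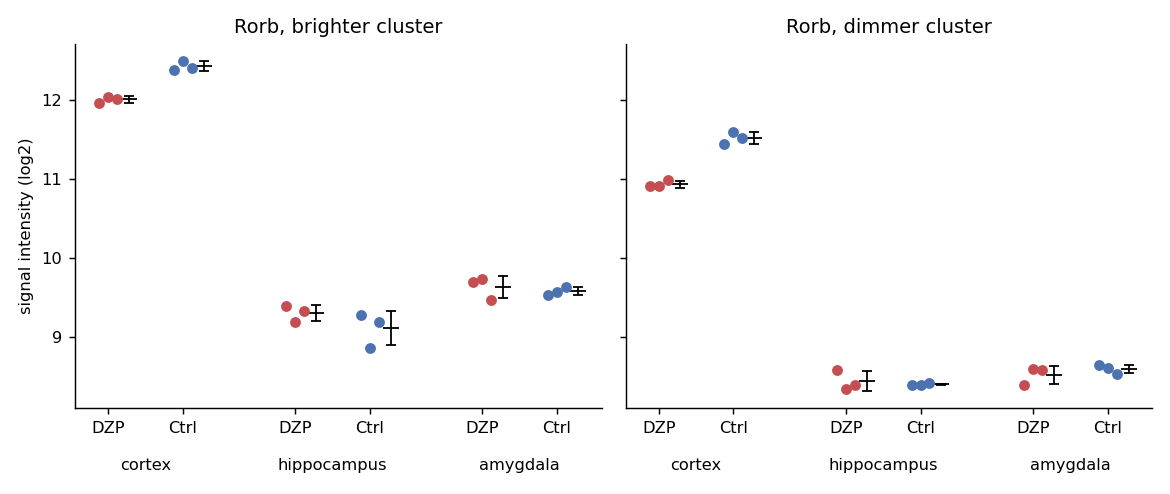
Signal intensity (log2) of the brighter (left) and the dimmer (right) *Rorb* cluster on each of the 18 arrays, by region and treatment (DZP red, Ctrl blue), with the mean and SD of the 3 arrays beside each group. In the cortex the DZP arrays lay at 11.97 to 12.05 and 10.91 to 10.98, below the Ctrl arrays at 12.39 to 12.51 and 11.44 to 11.60, and in the hippocampus and amygdala the treatments overlapped.

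At the exon level *Rorb* was covered by 30 probe sets, 18 probe selection regions (PSRs) and 12 junctions, which come from the same arrays as the gene level and are no independent replication. In the cortex, 28 of 30 had a lower mean in DZP mice, against 49.3% of all probe sets, 20 of 30 had all DZP arrays below all Ctrl arrays, against 6.22% of all 719071 probe sets, and 13 had an unadjusted p under 0.05, against 5.77% of all. The median difference was −0.41 and the range −1.22 to 0.95. The array medians over the 30 probe sets were 11.35, 11.37, and 11.29 in DZP cortex, against 11.73, 11.68, and 11.96 in Ctrl cortex, without overlap. None was called after correction over all probe sets (smallest adjusted p = 0.67), and no probe set of the array was called in this comparison (0%). The *Rorb* probe sets were lower in 12 of 30 cases in the hippocampus (median 0.11) and in 19 of 30 in the amygdala (median −0.04), where 48.3% and 49.1% of all probe sets were.

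Only 3 other members had non-overlapping arrays in the cortex, where 7.22% of all clusters lay wholly higher and 7.34% wholly lower. *Rasgrf2* (−0.09, adjusted p = 0.87) and *Scnn1a*, which is used as a marker of layer 4 (−0.20, adjusted p = 0.55), lay below. *Tox* lay above, with 9.68, 9.61, and 9.36 in DZP cortex, against 9.25, 9.26, and 9.22 in Ctrl cortex (0.31, SE 0.15, adjusted p = 0.64). The spread of *Tox* was wider among the DZP arrays than among the Ctrl arrays. Of its 34 exon-level probe sets, 26 had a higher mean in DZP cortex, 15 lay wholly above (6.29% of all probe sets) and 2 wholly below, with a median of 0.38 and a range of −0.44 to 1.67.

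The remaining layer 5 genes with the largest cortical differences were *Ldb2* (0.36, SE 0.17, adjusted p = 0.64) and *Crym* (0.32, SE 0.19, adjusted p = 0.75), whose arrays overlapped. At the exon level 19 of 22 *Ldb2* probe sets, 18 of 19 of *Crym*, 37 of 46 of *Cdh13*, 45 of 59 of *Sulf2*, and 9 of 11 of *Fezf2* had a higher mean in DZP cortex, but 17 of 36 of *Deptor* did (median −0.03). For *Cux2*, 48 of 72 probe sets had a lower mean and 12 lay wholly below, against 49.3% and 6.22% of all probe sets. A lower mean was also found in 65 of 103 for *Cux1*, 31 of 43 for *Scnn1a*, 26 of 42 for *Mef2c*, and 9 of 14 for *Rspo1*. The other upper layer genes were mixed, with 37 of 68 for *Rasgrf2*, 6 of 11 for *Pou3f2*, and 54 of 107 for *Otof*. *Pou3f1* had 2 of 4 and *Lhx2* 12 of 28 lower. Probe sets of 1 gene measure the same RNA and are not replicates. The mean level of the 10 layer 5 genes was 10.42 to 10.54 on the DZP cortex arrays, against 10.24 to 10.35 on the Ctrl cortex arrays, without overlap. That of the 11 upper layer genes was 9.81 to 9.89 in DZP cortex, against 9.86 to 10.00 in Ctrl cortex, with overlap. Leaving out 1 array at a time left 9 or 10 layer 5 genes higher and 1 to 4 upper layer genes higher (1 without DZP cortex replicate 1 and 4 without Ctrl cortex replicate 2).

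Other markers were measured beside these values. Of 7 genes shared by pyramidal neurons 5 had a higher mean in DZP cortex (median 0.08), with array means of 11.82 to 11.93 in DZP cortex, against 11.76 to 11.82 in Ctrl cortex. Of 8 interneuron markers 8 had a lower mean and 4 lay wholly below (median −0.31). *Npy*, the gene of neuropeptide Y, was the one that was called (−0.90, adjusted p = 0.034), and the somatostatin gene *Sst* differed by −1.0 (adjusted p = 0.11). The paper also reported *Npy* lower in the cortex on these arrays, but saw no apparent change in it by qRT-PCR. The mean of the interneuron markers was 10.75 to 10.88 in DZP cortex, against 11.10 to 11.27 in Ctrl cortex, while that of 12 striatal markers was 6.99 to 7.17 in DZP cortex, against 7.12 to 7.18 in Ctrl cortex. Endothelium markers stood at 9.15 to 9.19 in DZP cortex, against 9.01 to 9.09 in Ctrl cortex, without overlap. The part of these markers, or of the depth of the punch, in the differences of the layer genes was not tested. Of the 19 other layer genes, none was called in the cortex, 8 had a higher mean, 5 lay wholly above, and *Unc5d*, a netrin receptor, lay wholly below (−0.40, adjusted p = 0.65). The largest was *Nr4a2*, an orphan nuclear receptor that is induced by activity (−0.97, SE 0.29, adjusted p = 0.39). None of the 19 was called in the hippocampus, where 9 had a higher mean (median −0.01), or in the amygdala, where 8 did (median −0.04).

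**Figure D3:**
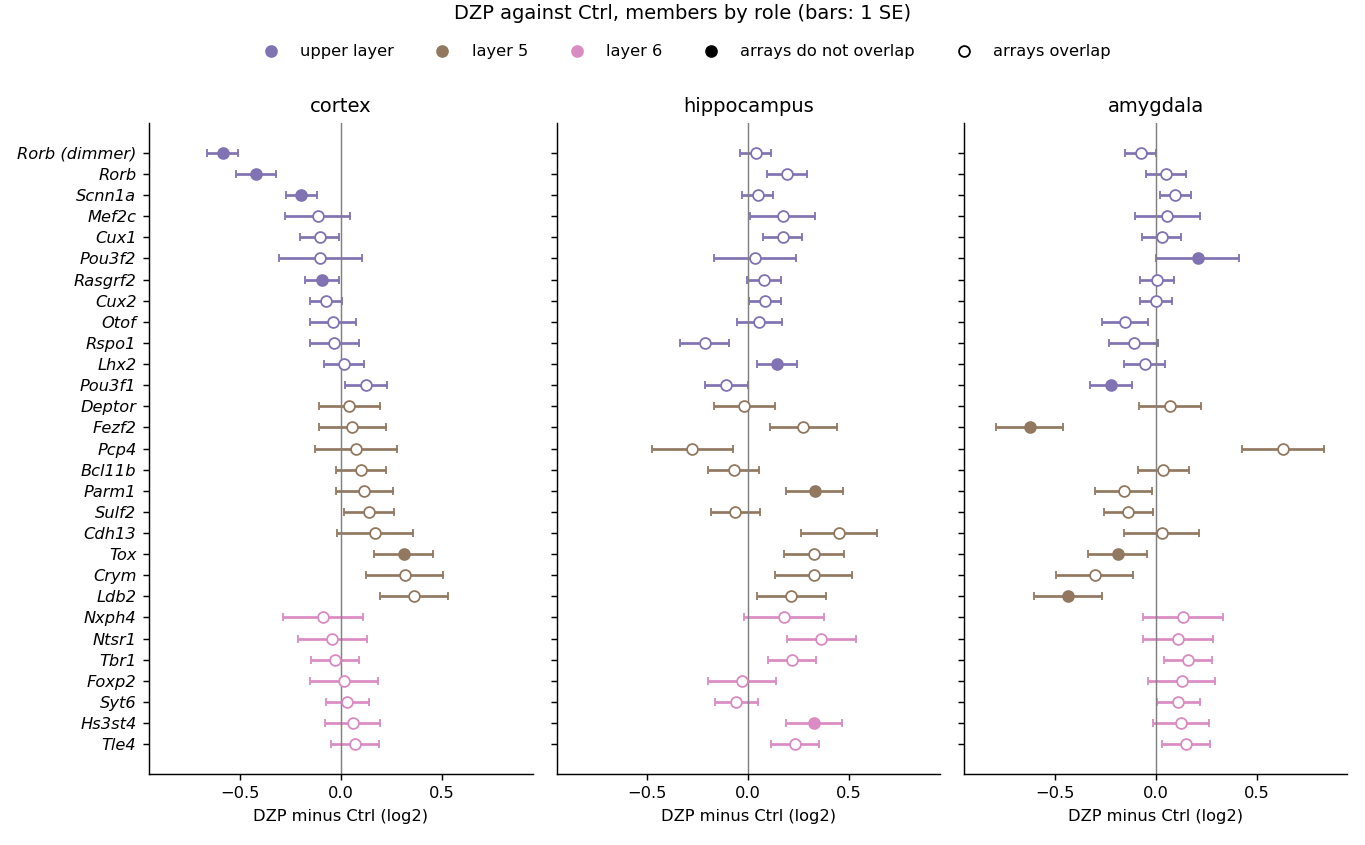
Log2 fold change of DZP against Ctrl for each member in the cortex, hippocampus, and amygdala, with 1 SE from the limma fit (3 arrays a group). Colors give the role and filled points the members whose DZP and Ctrl arrays do not overlap. In the cortex both *Rorb* clusters lay lowest, and the 10 layer 5 genes lay between 0.04 and 0.36.

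In the hippocampus, no member was called, against 5 clusters higher and 43 lower over the array (0.00758% and 0.0652%). The members' means lay mostly higher in DZP mice: 20 of 28 had a higher mean, with a median of 0.16, beside 48% of all clusters (52% lower) and a median of −0.01. By role these were 9 of 11 upper layer genes (median 0.08), 6 of 10 layer 5 genes (median 0.24), and 5 of 7 layer 6 genes (median 0.22). At an unadjusted p under 0.05, 4 members passed, all higher, against 11.2% of all clusters in either direction. Without each array in turn the median of the members ran from 0.07 (without Ctrl replicate 1) to 0.21 (without Ctrl replicate 3), that of the layer 5 genes from 0.13 to 0.41, and that of the upper layer genes from 0.02 to 0.13, with the same arrays at the ends.

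*Parm1* had 11.04, 10.94, and 10.90 in DZP hippocampus, against 10.51, 10.51, and 10.88 in Ctrl hippocampus. The groups were separated by only 0.02, since Ctrl replicate 3 lay close to the DZP arrays (0.33, SE 0.14, adjusted p = 0.39). *Hs3st4* had 8.25, 8.27, and 8.02 in DZP hippocampus, against 7.73, 7.95, and 7.88 in Ctrl hippocampus, without overlap (0.32, SE 0.14, adjusted p = 0.39). *Lhx2* was the third gene whose arrays lay wholly above (0.14, adjusted p = 0.65), where 6.45% of all clusters did, and none lay wholly below (9.69%). The largest difference was that of *Cdh13* (0.45, SE 0.19, adjusted p = 0.38), with overlap.

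In 6 of the 10 layer 5 genes (*Fezf2*, *Crym*, *Ldb2*, *Parm1*, *Tox*, and *Cdh13*), Ctrl hippocampus replicates 1 and 2 lay below both Ctrl replicate 3 and the 3 DZP arrays. *Tox* had 9.01, 9.06, and 9.0 in DZP hippocampus, against 8.50, 8.45, and 9.15 in Ctrl hippocampus, and *Cdh13* had 9.33, 9.41, and 9.01 in DZP hippocampus, against 8.59, 8.61, and 9.21 in Ctrl hippocampus. In both, Ctrl replicate 3 lay inside or above the range of the DZP arrays. The mean of all 28 members was 9.03, 9.04, and 8.94 in DZP hippocampus, against 8.80, 8.81, and 9.04 in Ctrl hippocampus, so Ctrl replicate 3 was as high as the highest DZP array. The choroid plexus markers, high in DZP replicates 1 and 2 and in Ctrl replicates 2 and 3, did not follow this split, and their part was not tested. Of 11 hippocampal markers 3 had a higher mean in DZP hippocampus (median −0.12). The array means of some other marker lists did not overlap between the treatments. Those of the striatal markers were only just apart, at 6.782 to 6.865 in DZP hippocampus, against 6.867 to 6.895 in Ctrl hippocampus. Interneuron markers stood at 9.97 to 10.06 in DZP hippocampus, against 10.22 to 10.51 in Ctrl hippocampus. *Npy* was called lower on the arrays (−1.36, adjusted p = 0.0020). The paper also reported *Npy* lower on these arrays, but saw no apparent change in it by qRT-PCR. Endothelium markers stood at 8.75 to 8.94 in DZP hippocampus, against 8.64 to 8.70 in Ctrl hippocampus, and astrocyte markers at 9.32 to 9.37 in DZP hippocampus, against 9.13 to 9.29 in Ctrl hippocampus. Their part in the values of the layer genes was not tested.

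At the exon level, 1 of the 999 probe sets of members was called in the hippocampus, where 89 probe sets were higher and 294 lower over the array (0.0124% and 0.0409%). It was a junction of *Cux2*, with a mean of 9.59 in DZP hippocampus, against 11.08 in Ctrl hippocampus (−1.49, SE 0.24, adjusted p = 0.044). No probe set of a member was called when any 1 of the Ctrl arrays or DZP replicate 1 or 2 was left out, and without DZP hippocampus replicate 3 there were 23 calls, 9 higher and 14 lower. Of the 72 *Cux2* probe sets 45 had a higher mean, so the junction ran against most of its gene. For *Parm1*, 11 of 11 probe sets had a higher mean (median 0.36), and for *Cdh13* 38 of 46, of which 11 lay wholly above, against 8.2% of all probe sets (7.51% lay wholly below). For *Mef2c*, 33 of 42 had a higher mean (median 0.29), and for *Pcp4* 0 of 5. Over all probe sets 48.3% had a lower mean in the hippocampus. Other members were mixed, such as *Deptor* with 18 of 36 and *Sulf2* with 22 of 59 higher.

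In the amygdala, no member and no other cluster was called (0%), and 4 members passed an unadjusted p of 0.05, 1 higher and 3 lower, against 9.4% of all clusters. The layer 5 genes had the widest range, −0.62 to 0.63, with 6 of 10 lower in mean (median −0.15, or −0.02 without DZP replicate 1 and −0.26 without DZP replicate 3). All 7 layer 6 genes had a slightly higher mean (0.11 to 0.16), where 58% of all clusters had a higher and 42% a lower mean. Their median was 0.13, or 0.08 without Ctrl replicate 3 and 0.24 without Ctrl replicate 2. The count was 5 of 7 without Ctrl replicate 1, and 6 of 7 without Ctrl replicate 3 or DZP replicate 3. Of these genes, *Nxph4* averaged 6.25 in DZP amygdala and 6.11 in Ctrl amygdala, below the negative controls. *Syt6* averaged 6.72 and 6.61, near them. Among the upper layer genes 7 of 11 had a higher mean (median 0.01). Centring each array on its median shifts all genes of a comparison alike, and 4 of 11 upper layer and 2 of 10 layer 5 genes then had a higher mean.

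*Fezf2* had 10.76, 10.52, and 10.86 in DZP amygdala, against 11.35, 10.92, and 11.74 in Ctrl amygdala. The groups did not overlap, and *Fezf2* had the lowest fold change of the members (−0.62, SE 0.17, 1.54-fold, adjusted p = 0.32). The difference was −0.42 without Ctrl amygdala replicate 3. *Ldb2* had 12.03, 11.84, and 11.79 in DZP amygdala, against 12.60, 12.12, and 12.24 in Ctrl amygdala, again without overlap (−0.43, SE 0.17, adjusted p = 0.45). *Pcp4* had 17.00, 16.90, and 16.44 in DZP amygdala, against 15.85, 16.54, and 16.05 in Ctrl amygdala (0.63, SE 0.20, adjusted p = 0.38). DZP replicate 3 lay below Ctrl replicate 2, so these groups overlapped.

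*Pou3f1* (−0.22, adjusted p = 0.53) and *Tox* (−0.19, adjusted p = 0.72) also lay wholly below the Ctrl arrays, and *Pou3f2* lay wholly above (0.21, adjusted p = 0.78). 4 members were thus wholly lower and 1 wholly higher, where 4.91% and 8.16% of all clusters were. At the exon level 11 of 11 *Fezf2* probe sets had a lower mean and 6 lay wholly below (6.3% of all probe sets, and 6.55% wholly above), with a median of −0.68. For *Ldb2*, 20 of 22 had a lower mean and 10 lay wholly below, for *Crym* 19 of 19 and 2, for *Tox* 27 of 34 and 4, and for *Otof* 76 of 107 and 24. For *Pcp4* 5 of 5 and for *Ctgf* 13 of 13 probe sets had a higher mean, with medians of 0.56 and 0.35. Over all probe sets 49.1% had a lower mean in the amygdala. Other members were mixed, such as *Bcl11b* with 7 of 15 and *Cux1* with 47 of 103 lower. No probe set of a member was called in the amygdala, where 0.000139% of all were called in each direction.

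Markers of the striatum, which borders the amygdala, had higher means in DZP mice in this region. All 12 measured markers had a higher mean in DZP amygdala (median 0.82), none was called, and their mean per array was 9.66, 9.85, and 8.83 in DZP amygdala, against 8.65, 9.10, and 8.15 in Ctrl amygdala. The largest difference was that of *Scn4b*, a sodium channel subunit (1.66, adjusted p = 0.29), followed by that of the dopamine receptor gene *Drd2* (1.32, adjusted p = 0.38). Of 9 amygdala markers, 7 had a lower mean in DZP amygdala and 2 of these had an unadjusted p under 0.05 (median −0.25), with array means of 6.98, 6.81, and 6.89 in DZP amygdala, against 7.38, 7.19, and 6.88 in Ctrl amygdala. Oligodendrocyte markers were higher in mean in 7 of 7 cases (median 0.41). Ctrl replicate 3, which had the highest *Fezf2* and *Crym* values and the high choroid plexus markers, had the lowest striatal and oligodendrocyte means (8.15 and 9.31). The part of these markers in the layer 5 values was not tested.

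**Figure D4:**
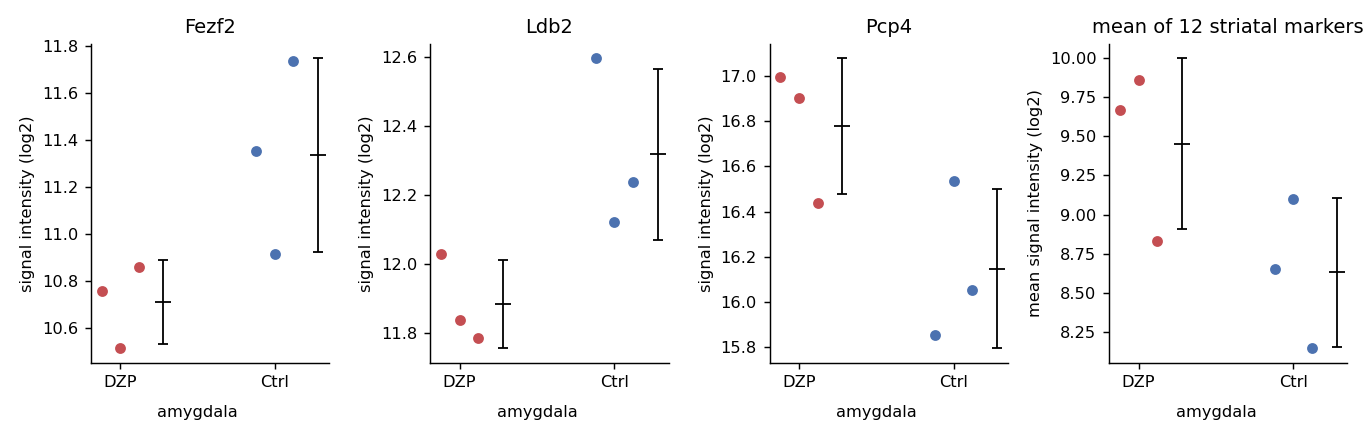
Signal intensity (log2) of *Fezf2*, *Ldb2*, and *Pcp4*, and the mean of 12 striatal markers, on the 3 DZP (red) and 3 Ctrl (blue) amygdala arrays, with the mean and SD beside each group. The DZP arrays lay below the Ctrl arrays for *Fezf2* and *Ldb2*, and the groups overlapped for *Pcp4* and the striatal markers.

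The DZP effect was also compared between regions, and averaged over them. No member passed the test of a difference between regions in any of the 3 contrasts, against 0.00455% of all clusters for hippocampus minus cortex, 0% for amygdala minus cortex, and 0.0121% for amygdala minus hippocampus. At an unadjusted p under 0.05, 2, 7, and 6 of 28 members passed, against 8.96%, 7.39%, and 9.31% of all clusters. The lowest values were those of *Fezf2* for amygdala minus hippocampus (−0.90, SE 0.23, adjusted p = 0.36) and *Ldb2* for amygdala minus cortex (−0.80, SE 0.24, adjusted p = 0.53), and the highest was that of *Pcp4* for amygdala minus hippocampus (0.91, SE 0.29, adjusted p = 0.41). For *Tox*, whose DZP arrays lay wholly above in the cortex and wholly below in the amygdala, amygdala minus cortex was −0.50 (SE 0.21, adjusted p = 0.64). In the average over the regions no member and no other cluster was called, and 9.73% of all clusters had an unadjusted p under 0.05. The dimmer *Rorb* cluster averaged −0.21 (SE 0.04, adjusted p = 0.28, or 0.068 as a contrast of the fit of the 6 groups) and *Cdh13* 0.22 (SE 0.07, adjusted p = 0.38). By the criteria of the methods' test, an unadjusted P under 0.05 and a 1.5-fold change, no member passed in any region, while the dimmer *Rorb* cluster passed in the cortex. Of all clusters, 0.177% were higher and 0.276% lower by these criteria for cortical arrays, 0.111% and 1.09% for hippocampal ones, and 0.126% and 0.0879% for the amygdala.

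**Figure D5:**
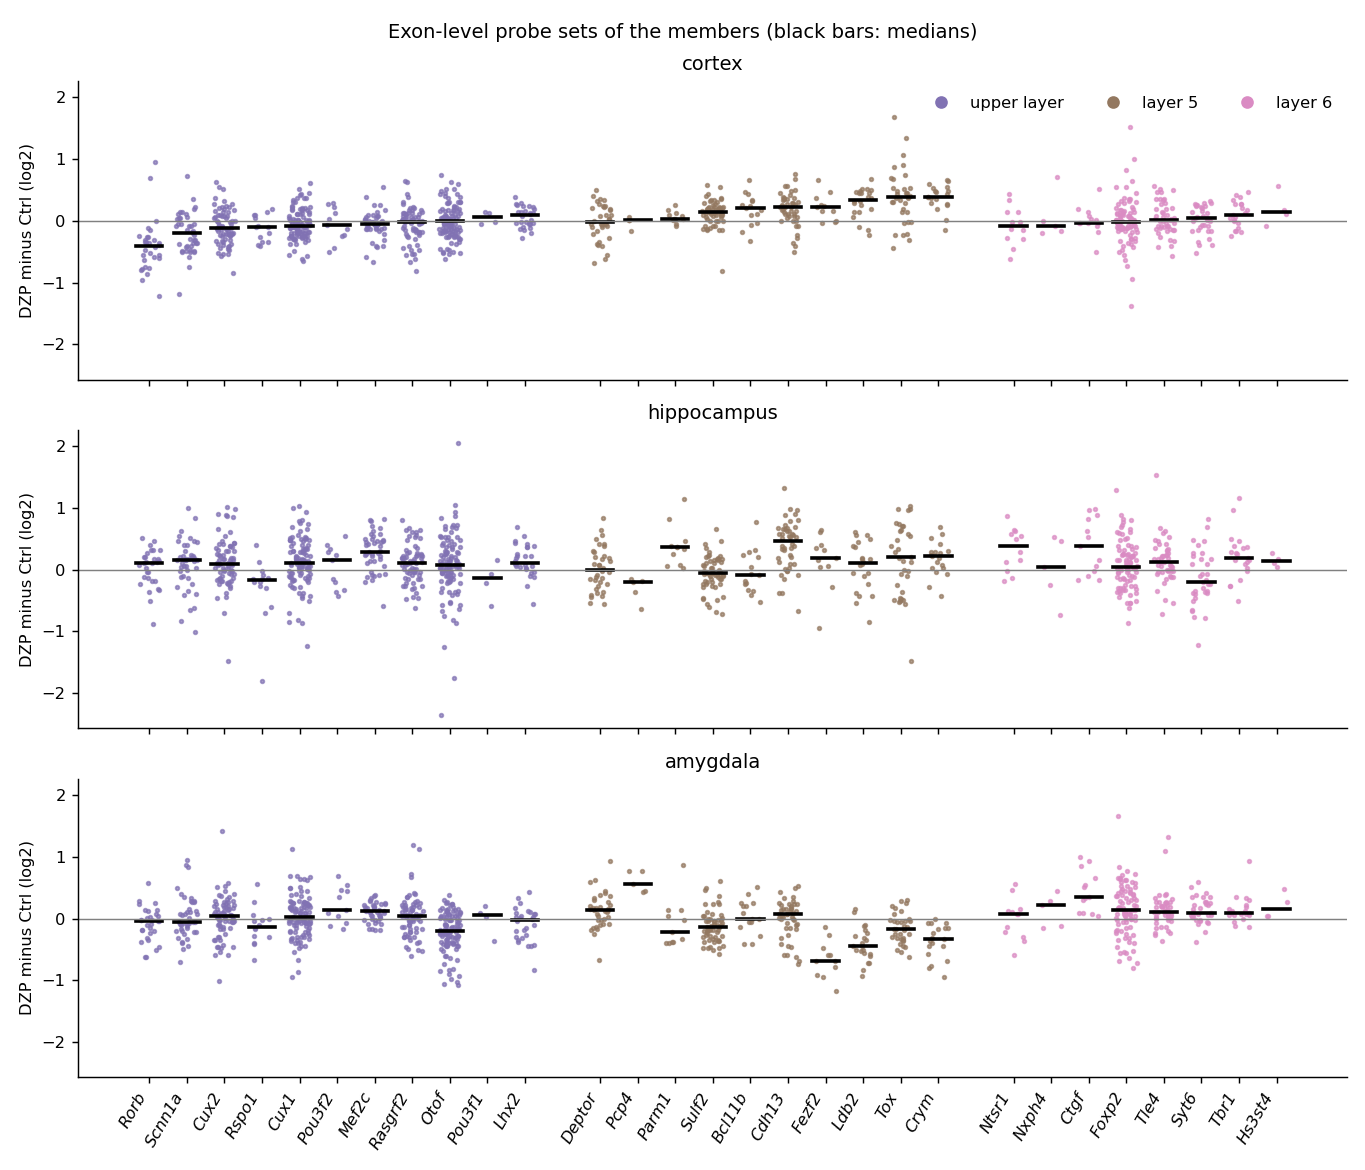
Log2 difference of DZP and Ctrl for each of the 999 exon-level probe sets of 29 members in the cortex, hippocampus, and amygdala, with the median of each gene as a black bar and colors by role. In the cortex the medians of *Rorb* (−0.41), *Tox* (0.38), and *Crym* (0.39) lay farthest from 0, and in the amygdala those of *Fezf2* (−0.68) and *Pcp4* (0.56).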

How the data were processed

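Tissue of the cortex, hippocampus, and amygdala of DZP and Ctrl mice was profiled on 18 Mouse Transcriptome Arrays 1.0 (100 ng of RNA each), 3 per group of treatment and region, and each was read as gene-level transcript clusters and as exon-level probe sets. The deposited values are log2 signal intensities made by the authors with Affymetrix Expression Console 1.4.1; how the probes were summarized is not stated in the labels or methods. Control probe sets (6732 at the gene and 6607 at the exon level) were left out, and 65956 clusters and 719071 exon-level probe sets were tested. Array number limits precision.

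Gene symbols came from the platform annotation. For each level, limma 3.58.1 in R 4.3.3 fitted the 6 groups on all 18 arrays with Benjamini-Hochberg adjustment at 0.05, with contrasts for DZP against Ctrl in each region, for regions within each treatment, and for the difference of the DZP effect between regions. The average effect was fitted on means over regions of arrays of a treatment and number. This joins arrays by number, although it is not known whether the numbers pair them by mouse. The contrast in the 6-group fit is its alternative. With 3 arrays a group, an exact permutation test of 1 gene cannot go below p = 0.1, so none was run. The methods' test is the comparison of the 2 groups alone at an unadjusted P of 0.05 and a 1.5-fold change. The fit was tested on simulated data. The members and marker lists were chosen with earlier results of these data known. Values by array are given for both Rorb clusters, for members called or with non-overlapping arrays and a log2 fold change of at least 0.3, and for the 3 members of each role with the largest difference between cortex and hippocampus in Ctrl; Crym, Pcp4, Tox, and Cdh13 are given beside them in some regions after their values were seen.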

Additional observations from a re-analysis of the deposited data

How the results depend on the processing

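The alternatives were other scalings, a filter on dim clusters, array weights, an intensity trend, fits of only the compared arrays, replicate blocks, and leaving out each array. The counts of members called between regions stayed within 1.5 times under all of them, with 17 to 23 calls, and no member became called by its brightest cluster in the hippocampus or the amygdala, between regions of the DZP effect, or in the average effect. No called value changed sign; the median over the members in the amygdala, 0.03, ran from −0.01 to 0.08. In the cortex, 1 member was called with the mean of a gene's clusters, *Rorb* (−0.50, adjusted p = 0.027). The dimmer *Rorb* cluster was −0.56 with each array centred on its median (adjusted p = 0.065), −0.59 with only the cortex arrays (0.21), and −0.59 in the methods' test after Benjamini-Hochberg correction (0.42), and ran from −0.62 to −0.55 without 1 array (adjusted p 0.032 to 0.14); the cause was not tested, beyond the fewer arrays of these fits. Over all its alternatives its adjusted p ran from 0.0042 to 0.42. Called exon-level probe sets of members in the hippocampus ran from 0 to 23 without 1 array.

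The counts of members with a higher mean, added after seeing the data, moved as follows. With each array centred on its median, 4 upper layer and 2 layer 5 genes were higher in the amygdala. Without 1 array, the upper layer genes higher in the cortex ran from 1 to 4, and layer 6 genes in the cortex from 2 to 5. In the amygdala, upper layer genes ran from 4 to 7, layer 5 genes from 2 to 4, and layer 6 genes from 5 to 7.

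Arrays of the same number did not deviate together in all pairs. Within a treatment, 18 same-number pairs across regions correlated at −0.14 to 0.53 (median 0.09), and 9 were over 0.1. Another 36 pairs of unlike number correlated at −0.54 to 0.26 (median −0.04), and 5 were over 0.1. Whether some same-number arrays share a mouse cannot be told from these values, so the main fit did not pair them. With the replicate block as a fixed term the dimmer *Rorb* cluster kept its call (−0.59, adjusted p = 0.024), and no DZP call at the gene level changed with either block. *Nxph4* lay below the level filter. Values near or below the negative controls, such as those of *Ntsr1*, *Nxph4*, and *Syt6* in the cortex, *Rspo1*, *Otof*, and *Foxp2* in the hippocampus, and *Scnn1a* in the amygdala, limit what a difference can show.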
